A study of Mus musculus with 16 samples.

Results

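The Myh7 group holds 7 genes: contractile isoforms that the fetal heart or skeletal muscle uses, and Myh6, the adult counterpart of Myh7. They are the myosin heavy chains Myh6, Myh7 and Myh7b, the troponins Tnnt1 and Tnni1, the actin Acta1 and the tropomyosin Tpm2. They were chosen by symbol, and 6 of the 7 have probes on the array, holding 9 of 25697 probes, among 16593 named genes in all. No probe carries the symbol Myh7b, so that gene was not analysed here. A probe was tested if its detection p-value was under 0.01 on at least 4 of the 16 arrays, which kept 9449 probes, 7 of them of 5 group genes. The single Tnni1 probe and the dimmest of 3 Tpm2 probes were detected on 0 arrays and were not tested.

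RNA came from the left ventricle of male mice, with 4 arrays for each of 4 genotypes. The genotypes were littermate controls (given as WT in the design), Myh6-TRAF2LC mice, Myh6-IκBαΔN mice, and double transgenic mice with both transgenes. They are called control, TRAF2LC, IκBαΔN (IkBaDN in the plots) and double transgenic here, and strain and age are not given in the sources used here. TRAF2 is an adaptor of tumour necrosis factor receptor signalling, and IκBαΔN is a form of the NF-κB inhibitor IκBα that holds NF-κB back. Both transgenes are named for the Myh6 promoter, which is active in heart muscle cells, so expression from it is limited to these cells. The comparisons ask how the group's genes differ with each transgene, and whether the TRAF2LC difference is also present when IκBαΔN is added.

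Myosin heavy chain is the motor of the thick filament. Myh6 encodes the fast alpha chain of the adult mouse ventricle, and Myh7 the slower beta chain, which dominates in the fetal mouse ventricle and in slow skeletal muscle. A shift from Myh6 towards Myh7, together with skeletal alpha-actin (Acta1), is a classic mark of the hypertrophied or failing rodent heart. Tnnt1 and Tnni1 encode the slow skeletal troponin T and troponin I, and Tnni1 is also the fetal troponin I of the heart. Tpm2 encodes beta-tropomyosin, which lies along the thin filament.

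Each of the 3 myosin genes also carries a microRNA, and these are shown because they tie the genes together: in mice, miR-208a from Myh6 is known to act on Myh7 expression. The mature sequences from RefSeq (build GRCm38.p6) are given below with the seed, bases 2 to 8, in capitals. They lie at chr14:54949072-54949093 on the minus strand inside Myh6, at chr14:54975710-54975731 on the minus strand inside Myh7, and at chr2:155622893-155622913 on the plus strand inside Myh7b.
mmu-miR-208a-3p: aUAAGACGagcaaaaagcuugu
mmu-miR-208b-3p: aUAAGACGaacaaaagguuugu
mmu-miR-499-5p: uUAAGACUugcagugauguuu
The Myh6 and Myh7 microRNAs share all 7 seed bases and the Myh7b one shares 6 of the 7 with either. The array has 0 probes for these 3 microRNA genes, so their levels were not analysed here.

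Myh6 and Myh7 are neighbours on chromosome 14, with 0 protein-coding genes between them. Their promoters are printed because the data below turn on how differently these neighbours behaved, and because the Myh6 promoter also gives the transgenes their name. Each window runs from 250 bases before the annotated start to 50 after it, on the minus strand, from RefSeq (GRCm38.p6), at chr14:54966558-54966857 for Myh6 and chr14:54994577-54994876 for Myh7. Capitals mark the M-CAT motif GGAATG, which TEAD factors bind, and the TATA motif TATAAA, both searched on both strands.
Myh6 promoter: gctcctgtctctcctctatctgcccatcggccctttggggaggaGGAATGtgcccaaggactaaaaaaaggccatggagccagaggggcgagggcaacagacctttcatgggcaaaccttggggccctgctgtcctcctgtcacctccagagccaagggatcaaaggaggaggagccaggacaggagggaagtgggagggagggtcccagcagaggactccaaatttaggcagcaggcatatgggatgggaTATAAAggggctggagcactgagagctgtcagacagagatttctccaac
Myh7 promoter: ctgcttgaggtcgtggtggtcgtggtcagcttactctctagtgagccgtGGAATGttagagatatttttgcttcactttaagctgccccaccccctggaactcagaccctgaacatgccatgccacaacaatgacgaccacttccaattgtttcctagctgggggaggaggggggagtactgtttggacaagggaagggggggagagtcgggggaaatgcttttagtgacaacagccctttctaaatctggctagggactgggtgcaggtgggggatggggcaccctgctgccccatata
The Myh6 window has an M-CAT match starting at base -206 and a TATAAA match at base 2, counted from the start site as base 1. The Myh7 window has an M-CAT match at base -201 and no TATAAA. A second, overlapping RefSeq window of Myh7, at chr14:54994500-54994799, has no M-CAT match. Of 32851 mouse promoter windows of this length, 14.7% hold M-CAT and 13.6% TATAAA, so neither match is rare. A loose NF-κB motif (GGG, any 5 bases, then CC), searched on both strands, occurs in the Myh6 window, where its 2 matches overlap, and not in the Myh7 windows, and 50.8% of all windows hold it. Of the other members, Acta1 alone has an M-CAT match in its window.

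All values below are normalised log2 intensities, and a call means a Benjamini-Hochberg adjusted p under 0.05 from limma over all 9449 tested probes. Array means of the deposited signal ranged from 129 to 375, with IκBαΔN replicates 2 and 3 the dimmest, and 7948 to 9397 probes were detected per array. All 7 ventricular heart muscle markers on the array passed the detection rule and none was called in any comparison. All 8 atrial markers passed it too. Their summed unlogged level in control was 81339 to 83444, beside 113569 to 122931 for the ventricular markers. The atrial sum was 65637 to 83594 in TRAF2LC, 64905 to 79285 in IκBαΔN and 65064 to 82722 in double transgenic ventricles. The part of the atrial markers in the differences below was not tested. Of 13 skeletal muscle markers on the array, 7 were detected on 0 arrays: Myh1, Myh4, Tnni2, Tnnt3, Tnnc2, Ryr1 and Mybpc1. In bulk ventricle, a change in the number of cells that use a gene and a change in its RNA per cell cannot be told apart.

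**Figure D1:**
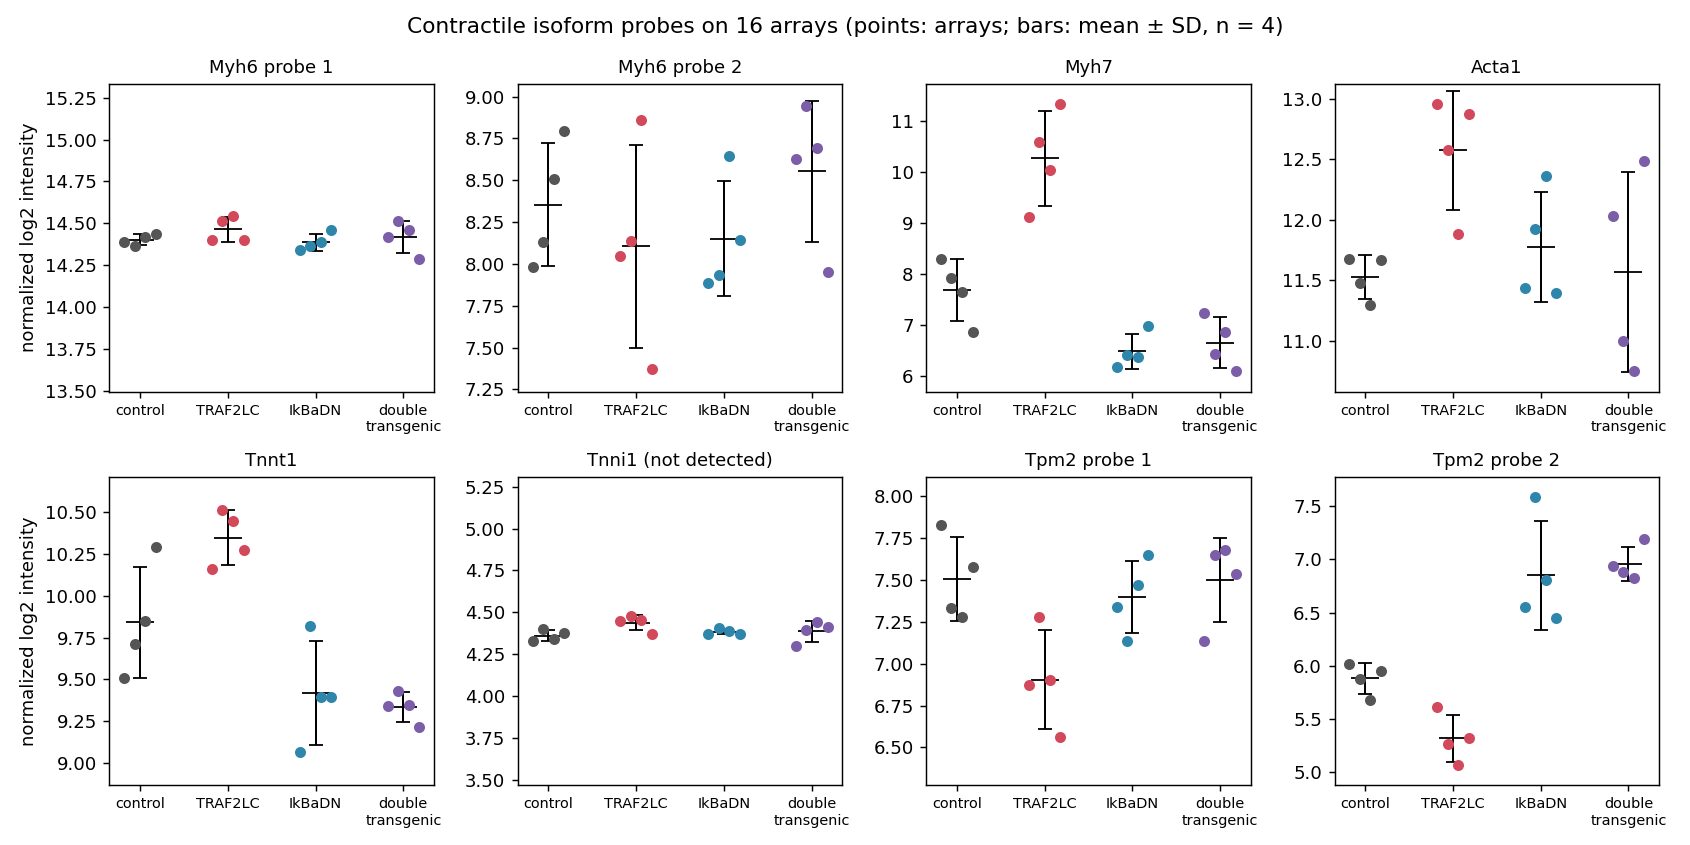
Normalised log2 intensity (y axis, each panel with its own range) of 8 group probes on the 16 arrays by genotype. Points are arrays and bars give the mean ± SD (n = 4): Myh7 was highest on the TRAF2LC arrays, from 9.12 to 11.34, and Tpm2 probe 2 on the arrays with the IκBαΔN transgene, from 6.45 to 7.59, while Myh6 probe 1 stayed between 14.29 and 14.54.

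Myh7, the beta myosin heavy chain, had its highest mean in TRAF2LC ventricles and its lowest means in the genotypes with the IκBαΔN transgene. Its single probe was detected on all 16 arrays. In controls, replicates 1 to 4 read 8.29, 7.92, 7.65 and 6.86. In TRAF2LC ventricles they read 9.12, 10.59, 10.03 and 11.34. All 4 TRAF2LC arrays lay above all 12 others, which is true of 1.38% of tested probes. In IκBαΔN ventricles they read 6.17, 6.40, 6.36 and 6.97, and in double transgenic ventricles 7.24, 6.42, 6.86 and 6.08. These last genotypes overlapped each other and reached into the lower end of the control range, set by control replicate 4.

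Myh7 rose in TRAF2LC ventricles by 2.59 ± 0.39 (SE) on the log2 scale, a 6.03-fold difference, from 7.68 ± 0.61 to 10.27 ± 0.94 (SD, n = 4 each; limma adjusted p = 0.00290). It was the 1 group gene called of the 5 tested in this comparison, in which 1.04% of all probes were called and 0.741% were called higher. TRAF2LC replicate 4 held the highest Myh7 value, and without it the difference was 2.24 (limma adjusted p = 0.00707). This array also had the highest summed level of the macrophage markers, 3834 against 1762 to 2288 in controls. All 5 tested macrophage markers were higher in TRAF2LC ventricles, and Cx3cr1, the fractalkine receptor, was called (0.87, limma adjusted p = 0.0258). All 5 were also higher in IκBαΔN ventricles than in control, and 0 were called. Their median log2 change from control was 0.12 in IκBαΔN and 0.40 in TRAF2LC ventricles. Their summed level was 1836 to 2630 in IκBαΔN and 2136 to 3834 in TRAF2LC ventricles. The part of the macrophage markers in the Myh7 difference was not tested.

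In double transgenic ventricles Myh7 was 12.3-fold lower than in TRAF2LC ventricles, a log2 difference of -3.62 ± 0.39 (SE; limma adjusted p = 3.52e-05). The groups did not overlap, as for 9.98% of probes, and no other tested probe had a larger decrease in this comparison. By their brightest probes, 2 of the 5 tested group genes were called here, Myh7 and Tnnt1, both lower, against 2.91% of all probes called and 1.59% called lower. The dimmer tested probe of Tpm2, probe 2, was called higher (1.64, limma adjusted p = 8.83e-05), against 1.32% of all probes called higher. The double transgenic mean of 6.65 ± 0.50 lay close to the IκBαΔN mean of 6.47 ± 0.34 (SD, n = 4 each). The difference between these genotypes was 0.17 with a 95% interval of -0.65 to 1.0 (limma adjusted p = 0.985), in a comparison where 0.0106% of probes and 0 group genes were called. At an unadjusted p under 0.05, 5.78% of probes passed in that comparison and 0 group probes. The groups overlapped for every tested group probe there, and did not overlap for 2.92% of all probes.

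Against control, Myh7 was lower by -1.20 ± 0.39 in IκBαΔN ventricles (limma adjusted p = 0.320) and by -1.03 ± 0.39 in double transgenic ventricles (limma adjusted p = 0.334), log2 with SE. Neither was called, and both intervals lay below 0, from -2.03 to -0.38 and from -1.86 to -0.20. By their brightest probes, 0 of the 5 tested group genes were called in either comparison, where 0.444% and 0.847% of all probes were called. The test of the interaction asks whether TRAF2LC changed Myh7 by a different amount with and without IκBαΔN. It gave -2.42 ± 0.55 (log2, SE), with a 95% interval of -3.59 to -1.25 and an unadjusted p of 0.000438, and it missed the threshold over all probes (limma adjusted p = 0.180). In that test 0.0212% of all probes and 0 group genes were called, while 5 of the 7 tested group probes and 6.21% of all probes had an unadjusted p under 0.05. The 5 were Myh7, Acta1, Tnnt1 and both Tpm2 probes. Leaving out TRAF2LC replicate 1, the lowest of its genotype, brought Myh7 to -2.80 and past the threshold (limma adjusted p = 0.0438). In the 15 other fits that left out 1 array it missed the threshold, with a limma adjusted p of up to 0.395. Without TRAF2LC replicate 4, the highest of its genotype, it was -2.06 (limma adjusted p = 0.246).

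**Figure D2:**
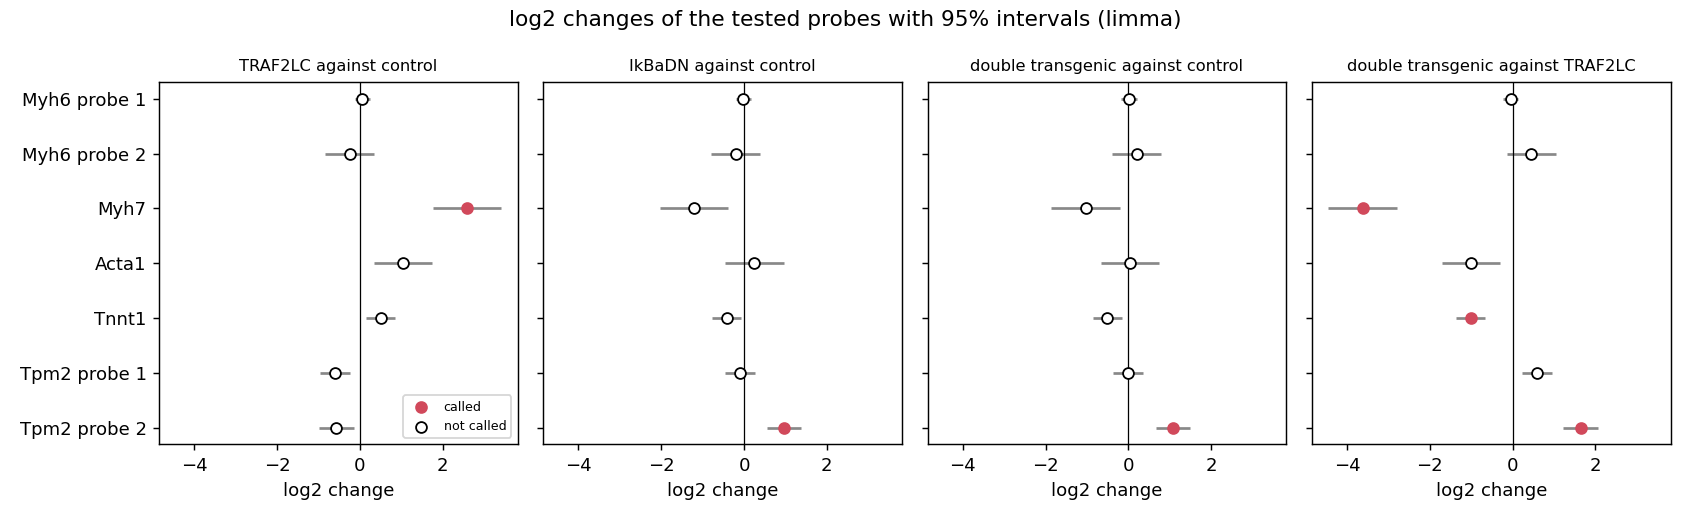
log2 changes (x axis) of the 7 tested group probes in 4 comparisons, with 95% intervals from limma. Filled points are called: Myh7 at 2.59 in TRAF2LC against control, Tpm2 probe 2 at 0.97 and 1.08 in the comparisons of IκBαΔN and double transgenic with control, and Myh7 at -3.62, Tnnt1 at -1.01 and Tpm2 probe 2 at 1.64 in double transgenic against TRAF2LC.

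Myh6, the adult alpha chain, showed no called difference in any comparison by either probe. Its bright probe read 14.39, 14.36, 14.42 and 14.44 in control replicates 1 to 4. In TRAF2LC ventricles it read 14.40, 14.51, 14.54 and 14.40, and in double transgenic ventricles 14.42, 14.51, 14.46 and 14.29. IκBαΔN ventricles gave 14.34, 14.36, 14.39 and 14.46, and all 4 genotypes overlapped. The difference of TRAF2LC from control was 0.06 with a 95% interval of -0.12 to 0.25 (limma adjusted p = 0.879). This probe ranked between 26 and 38 of 25697 on every array. Quantile normalisation gives probes of equal rank equal values, so the scale leaves a gene so near its top little room to move. On the authors' values, scaled by 1 factor per array, the same difference was -0.03.

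The dimmer Myh6 probe was more variable, at 8.35 ± 0.37 in control, 8.10 ± 0.61 in TRAF2LC, 8.15 ± 0.35 in IκBαΔN and 8.55 ± 0.42 in double transgenic ventricles (SD, n = 4 each). It is detected on all 16 arrays and its genotypes overlapped. Its difference between TRAF2LC and control was -0.25, with a 95% interval of -0.84 to 0.35.

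The balance of the myosins, log2 Myh7 minus log2 Myh6 on each array, is set almost wholly by Myh7 when the bright Myh6 probe is used, since that probe stays within 14.29 to 14.54. The probes differ in their response, so only differences between arrays are read, and as a value made from group members the balance was given no test. It averaged -6.72 ± 0.63 in control, -4.19 ± 0.94 in TRAF2LC, -7.91 ± 0.29 in IκBαΔN and -7.77 ± 0.47 in double transgenic ventricles (SD, n = 4 each). The TRAF2LC arrays ran from -5.28 to -3.06 and the control arrays from -7.58 to -6.09, with no overlap. The IκBαΔN arrays, from -8.16 to -7.49, and the double transgenic arrays, from -8.21 to -7.18, covered much the same range and reached into that of control. The balance differed by 2.53 ± 0.57 (log2, SE) towards Myh7 in TRAF2LC over control, and by 2.84 with the dimmer Myh6 probe. It was less towards Myh7 in double transgenic than in TRAF2LC ventricles, with a log2 difference of -3.58 ± 0.53 (SE), and -4.07 with the dimmer Myh6 probe.

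**Figure D3:**
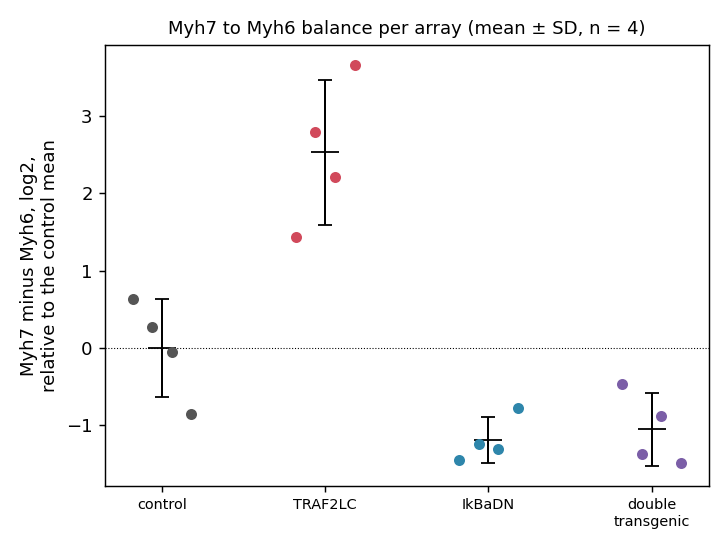
Myh7 minus Myh6 (log2, y axis) per array, set relative to the control mean at 0, by genotype. Points are arrays and bars the mean ± SD (n = 4): the TRAF2LC arrays lie from 1.44 to 3.67 and the arrays with the IκBαΔN transgene from -1.48 to -0.46.

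Acta1, the skeletal alpha-actin of the thin filament that the fetal heart also uses, was highest in TRAF2LC ventricles without passing the test. It read 11.67, 11.48, 11.30 and 11.66 in control and 12.96, 12.58, 11.88 and 12.87 in TRAF2LC replicates 1 to 4. These genotypes did not overlap, which is true of 7.08% of tested probes. The log2 difference was 1.04 ± 0.33 (SE), 2.06-fold, with a limma adjusted p of 0.223. IκBαΔN ventricles read 11.44, 11.92, 12.36 and 11.39 and double transgenic ventricles 12.03, 11.00, 10.75 and 12.49, so the latter had the widest spread of any genotype (SD 0.83). The deposited columns were split by their order into sets 1 and 2. Double transgenic arrays averaged 12.26 in set 1 and 10.88 in set 2, and IκBαΔN arrays 11.42 and 12.14. Double transgenic thus differed from control by 0.69 in set 1 and -0.60 in set 2, and the cause was not tested. Double transgenic against TRAF2LC gave -1.003 ± 0.33 (limma adjusted p = 0.131). Without double transgenic replicate 4, the highest of its genotype, it gave -1.31 with a limma adjusted p of 0.0370. In the 15 other fits that left out 1 array it was not called (limma adjusted p up to 0.331). The interaction was -1.25 ± 0.47 (limma adjusted p = 0.724).

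Tnnt1, the slow skeletal troponin T that anchors the troponin complex to tropomyosin, was also highest on average in TRAF2LC ventricles and lowest in the genotypes with IκBαΔN, over a narrower range than Myh7. It read 9.51, 9.71, 9.85 and 10.29 in control and 10.16, 10.51, 10.45 and 10.27 in TRAF2LC replicates 1 to 4. The genotypes overlapped through control replicate 4, and the difference of 0.51 ± 0.17 was not called (limma adjusted p = 0.237). IκBαΔN ventricles read 9.07, 9.82, 9.39 and 9.40, and double transgenic ventricles 9.34, 9.43, 9.35 and 9.22. Every double transgenic array was below every control and every TRAF2LC array. Against TRAF2LC, Tnnt1 fell by 1.01 on the log2 scale (SE 0.17), 2.02-fold, from 10.35 ± 0.16 to 9.33 ± 0.09 (SD, n = 4 each; limma adjusted p = 0.00180). Against control its difference was -0.51 ± 0.17, which was not called (limma adjusted p = 0.239) although the groups did not overlap, as for 8.49% of probes. With the 3 runs of the sample numbers in the labels as a block, that difference became -0.65 and was called (limma adjusted p = 0.0434). It was not called in the 11 other alternative settings, with a limma adjusted p of up to 0.925. In the 16 fits that left out 1 array it was not called either (limma adjusted p from 0.157 to 0.435).

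Tnni1, the slow and fetal troponin I, was detected on 0 of 16 arrays. Its probe lay between ranks 24192 and 25670 of 25697, at the level of background, so no difference was read from it.

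Tpm2, beta-tropomyosin, had both tested probes lowest in TRAF2LC ventricles, while probe 2 alone was called in any comparison. Probe 1, the brighter, read 7.83, 7.33, 7.28 and 7.58 in control, 6.87, 7.28, 6.90 and 6.56 in TRAF2LC, 7.34, 7.14, 7.47 and 7.65 in IκBαΔN and 7.13, 7.65, 7.68 and 7.54 in double transgenic replicates 1 to 4. It was lowest in TRAF2LC ventricles, where the difference from control was -0.60 ± 0.17 (limma adjusted p = 0.152) and that of double transgenic from TRAF2LC was 0.60 ± 0.17 (limma adjusted p = 0.0781). The latter was called without TRAF2LC replicate 2 (0.72, limma adjusted p = 0.0370) or without double transgenic replicate 1 (0.72, limma adjusted p = 0.0440). In the 14 other fits that left out 1 array it was not called (limma adjusted p up to 0.228).

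Tpm2 probe 2 was detected on 13 of 16 arrays, and on 1 of the 4 TRAF2LC arrays, so its TRAF2LC level is near background. It read 6.02, 5.87, 5.68 and 5.95 in control and 5.61, 5.27, 5.07 and 5.32 in TRAF2LC replicates 1 to 4. IκBαΔN ventricles read 6.55, 7.59, 6.81 and 6.45 and double transgenic ventricles 6.94, 6.89, 6.82 and 7.19. TRAF2LC differed from control by -0.56 ± 0.20 (limma adjusted p = 0.276), close to the -0.60 of probe 1. The groups did not overlap, as for 7.08% of tested probes. All 8 arrays with the IκBαΔN transgene lay above all 8 without it, as for 0.688% of tested probes. Against control, probe 2 rose by 0.97 ± 0.20 in IκBαΔN ventricles (1.96-fold, limma adjusted p = 0.0391), where 0.254% of probes were called higher and 5.14% did not overlap between the groups, and by 1.08 ± 0.20 in double transgenic ventricles (2.11-fold, limma adjusted p = 0.0130), where 0.497% were. Against TRAF2LC, probe 2 rose by 1.64 ± 0.20 in double transgenic ventricles (limma adjusted p = 8.83e-05), in a comparison with 1.32% of probes called higher. With 1 of 4 TRAF2LC arrays above background, the size of that rise is uncertain: it ran from 1.099 with an offset of 50 to 2.30 on the authors' scaled values, and stayed called in both. The IκBαΔN call was near its threshold, which it missed in 11 of 16 fits that left out 1 array (limma adjusted p up to 0.134). Without IκBαΔN replicate 2, the highest array, the difference was smaller, at 0.72, and stayed called. The double transgenic call against control was lost without control replicate 3 (limma adjusted p = 0.0534) or double transgenic replicate 4 (limma adjusted p = 0.0565). Probe 1, the brighter, showed no such rise over control. It differed by -0.11 ± 0.17 in IκBαΔN ventricles (limma adjusted p = 0.952). In double transgenic ventricles it differed by -0.0054 ± 0.17 (limma adjusted p = 0.997). The rises over control are thus those of probe 2 and are not read as a rise of Tpm2 as a whole. The sources used here do not say which Tpm2 transcripts each probe reads, and the cause of the difference between the probes was not tested. Tpm2 is also a smooth muscle gene, and the summed level of the smooth muscle markers was 14593 to 25664 in IκBαΔN and 21082 to 24316 in double transgenic ventricles, against 10932 to 15956 in control and 11270 to 14678 in TRAF2LC ventricles. These sums are of unlogged intensities, so the brighter markers weigh most in them. Of the 4 tested markers, 2 were higher and 2 lower in IκBαΔN against control, with a median log2 change of 0.011. The split was the same in double transgenic against control, with a median of 0.0019. Acta2 alone was called, as given below, and the part of these markers in the Tpm2 differences was not tested.

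Over the 16 arrays, Myh7 correlated with Tnnt1 at r = 0.78, with Acta1 at 0.53, with Tpm2 probe 1 at -0.66 and with Tpm2 probe 2 at -0.85. The arrays fall into genotypes, and after each genotype's mean was subtracted the same values were -0.17, -0.11, -0.10 and -0.25. Myh7 thus varied with these members between genotypes and little within them. With the bright and dim Myh6 probes, Myh7 correlated at 0.40 and -0.32 over all arrays and at 0.13 and -0.35 within genotypes. Other pairs had larger correlations within genotypes, among them the 2 Myh6 probes (0.77) and Acta1 with Tpm2 probe 2 (0.54). Myh6 probe 1 and Acta1 moved in opposite directions (-0.72). These pairs were picked for their size and were not tested. The 2 Tpm2 probes correlated at 0.45 over all arrays and at -0.25 within genotypes.

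**Figure D4:**
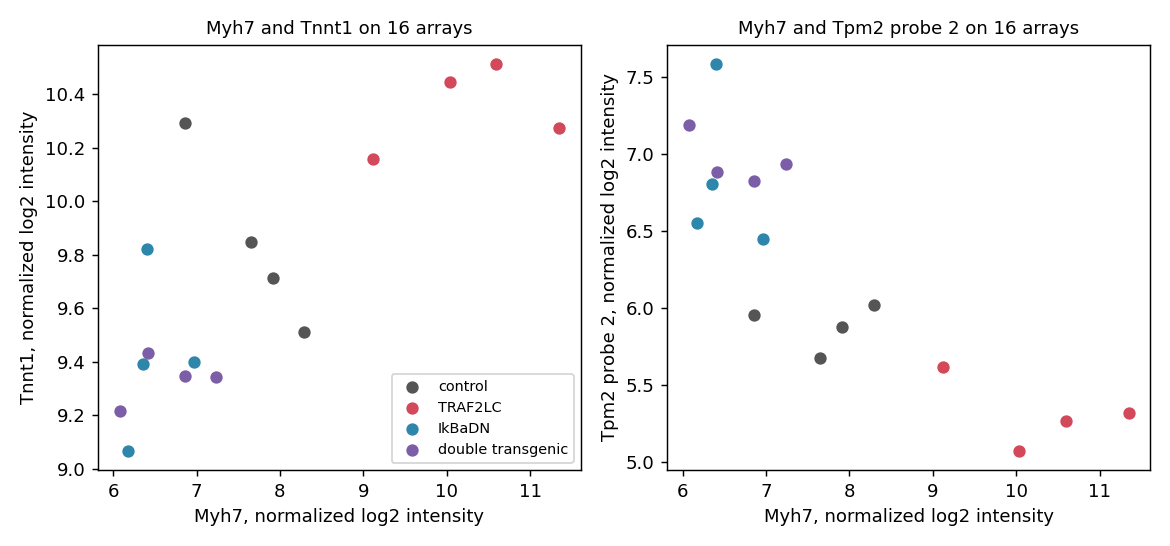
Tnnt1 (left) and Tpm2 probe 2 (right) against Myh7, each as normalised log2 intensity on the 16 arrays, coloured by genotype. The TRAF2LC arrays lie at the right, with Myh7 at 9.12 or more, at the top for Tnnt1 together with control replicate 4 and at the bottom for Tpm2 probe 2.

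Of 31 other isoforms of these sarcomere families, 26 were on the array and 18 were tested. In TRAF2LC against control 8 were higher and 10 lower with a median of -0.05, against -0.01 for all probes, and 0 were called. Against control, 6 were higher and 12 lower in IκBαΔN ventricles, with a median of -0.05 against -0.0091 for all probes. Of these 1 was called, lower, where 0.444% of all probes were called. In double transgenic ventricles 4 were higher and 14 lower, with a median of -0.08 against 0.0011 for all probes. There 1 was called higher and 1 lower, where 0.847% of all probes were called. The smallest p in TRAF2LC against control belonged to Mybpc2, the fast skeletal myosin-binding protein C (1.48 ± 0.55, limma adjusted p = 0.310), which was detected on 3 of 4 TRAF2LC arrays, 1 control array and no array with the IκBαΔN transgene. The summed level of the 2 tested skeletal muscle markers, Mybpc2 and Pvalb, was 91.2 to 350 in TRAF2LC and 109 to 180 in control ventricles. It was 80.9 to 92.3 in IκBαΔN and 69.5 to 98.8 in double transgenic ventricles. In TRAF2LC replicates 1 to 4 the sum was 143, 347, 350 and 91.2. Of the 2 markers, 1 was higher and 1 lower in TRAF2LC against control. The part of these markers in the Acta1 and Tnnt1 differences was not tested.

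Myl1, an essential light chain of fast skeletal and embryonic muscle, was called lower with IκBαΔN. It fell by 1.57 in IκBαΔN ventricles (limma adjusted p = 4.88e-05; 0.19% of probes were called lower) and by 1.32 in double transgenic ventricles (limma adjusted p = 0.000276) against control, on the log2 scale. In TRAF2LC ventricles it stood at 12.71 ± 0.25 against 12.57 ± 0.22 in control (SD, n = 4 each). Acta2, the smooth muscle actin that the embryonic heart also uses, was called higher in double transgenic ventricles against control (1.002, limma adjusted p = 0.0140) and against TRAF2LC (0.97, limma adjusted p = 0.00678).

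Of 40 listed regulators of these genes, such as TEAD, MEF2 and GATA factors, thyroid hormone receptors and calcineurin, 38 were on the array and 25 were tested. In TRAF2LC against control 8 were higher and 17 lower, with a median of -0.05 and 0 called. Tead2, one of the TEAD factors that bind M-CAT, was called higher in IκBαΔN ventricles (0.52, limma adjusted p = 0.0285) and double transgenic ventricles (0.52, limma adjusted p = 0.0195) against control, and in double transgenic against TRAF2LC (0.40, limma adjusted p = 0.0401). Rcan1, a calcineurin inhibitor that is itself a calcineurin target, was lower in double transgenic than in TRAF2LC ventricles (-0.53, limma adjusted p = 0.0260). Its difference of TRAF2LC from control was 0.51 (limma adjusted p = 0.0732). Tead1, Tead3 and Thrb were detected on 0 arrays.

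Of 16 listed genes of the cardiac stress response, 12 were tested. In TRAF2LC against control 11 of 12 were higher, with a median of 0.24 against -0.01 for all probes, and 0 were called. The smallest p was that of Mtpn, myotrophin (0.55, limma adjusted p = 0.154). In double transgenic against TRAF2LC 10 of 12 were lower, with a median of -0.19 against 0.01 for all probes. Myot, the Z-disc protein myotilin, was called there (-1.06, limma adjusted p = 0.00958) and in IκBαΔN against control (-1.09, limma adjusted p = 0.0320). Nppa, atrial natriuretic peptide, which often rises with Myh7 in stressed ventricles, was at 15.12 ± 0.10 in control and 15.13 ± 0.08 in TRAF2LC ventricles (SD, n = 4 each), near the top of the scale.

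Among 6806 tested genes with a name, those whose levels followed Myh7 most closely over the 16 arrays were Rnase1 (r = 0.965), Tnip1 (0.948), Grk5 (0.941), Kif22 (0.940) and Stap2 (0.932). As Myh7 was highest on the TRAF2LC arrays, genes chosen this way differ in the same comparison by their choice, and their changes are given as description. In TRAF2LC against control Rnase1, a secreted ribonuclease, differed by 1.44 on the log2 scale. Tnip1, a ubiquitin-binding inhibitor of NF-κB signalling, differed by 1.29, and Grk5, a kinase of G protein-coupled receptors, by 1.05. The lowest correlations were those of Whrn (-0.932), Aqp4 (-0.926) and Cmtm8 (-0.923). In the same comparison, where 0.296% of all probes were called lower, Whrn differed by -0.51, Aqp4, a water channel, by -0.90 and Cmtm8 by -1.05.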

How the data were processed

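RNA from the left ventricle was labelled with biotin and read on single-colour Illumina mouse arrays, per the labels' protocols. The deposited table gives, per probe and array, a bead intensity, background-subtracted by the authors before deposit (14378 probes lie below 0 on at least 1 array) and the authors' detection p-value. Their scaled intensity table holds the same signals times 1 factor per array (largest departure 0.0161). BeadStudio and GenomeStudio are named in the submitters' processing notes.

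Signals were background-corrected with nec (limma 3.58.1, R 4.3.3), which reads the detection p-values (offset 16), quantile normalised and taken as log2. Probes with detection p under 0.01 on 4 or more of 16 arrays were fitted with 1 mean per genotype (lmFit, eBayes), adjusted by Benjamini-Hochberg per comparison at 0.05, and the code was tested on simulated data. Precision is limited by 4 arrays per genotype. Each array has its own sample number in the labels, which do not say that each is a separate animal, so p-values measure the spread between these samples, which may be technical. Of the probes, 23978 had 1 symbol in the platform annotation, 0 several and 1719 none. Values of a gene are those of its brightest tested probe unless another is named. The members and the gene lists were chosen with earlier results of these data known. The text names all members, the called genes of each list or the one with the smallest p, and the genes most correlated with Myh7. Nppa, Pvalb and undetected list genes are named outside that rule, chosen after their values were seen. Alternatives covered scaling, background, offset, filter, array weights, blocks and left-out arrays.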

Additional observations from a re-analysis of the deposited data

How the results depend on the processing

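The Myh7 calls in TRAF2LC against control and in double transgenic against TRAF2LC kept their direction and stayed past the threshold in all 12 other settings and in all 16 fits with 1 array left out. The Myh7 interaction ranged from -2.80 to -2.06 as arrays were left out, and the group genes called in it from 0 to 1. As arrays were left out, Myh7 in double transgenic against IκBαΔN ranged from -0.023 to 0.36 and the balance there from -0.056 to 0.29. With the dimmer Myh6 probe that balance was -0.23. With the runs of sample numbers as a fixed block, 1 group gene was called by its brightest probe in double transgenic against control, Tnnt1.

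These uncalled log2 differences changed sign, and the cause was not tested. With median scaling, Acta1 gave -0.0024 in IκBαΔN against control, Myh6 probe 1 gave -0.022 and Tpm2 probe 1 gave 0.12 in double transgenic against control, Tnnt1 gave 0.32 and Acta1 0.15 in double transgenic against IκBαΔN, and the Myh6 probe 1 interaction was 0.16. With the authors' scaled values, Myh6 probe 1 gave -0.031, 0.023 and -0.091 in TRAF2LC, IκBαΔN and double transgenic against control and -0.11 in double transgenic against IκBαΔN, Tpm2 probe 1 gave 0.065 in double transgenic against control, and Tnnt1 0.012 in double transgenic against IκBαΔN. With array weights, Acta1 gave -0.062 and Tpm2 probe 1 0.077 in double transgenic against control, and Tnnt1 0.018 in double transgenic against IκBαΔN. With the runs as a fixed block, Myh6 probes 1 and 2 gave -0.018 and -0.082 in double transgenic against control, and in double transgenic against IκBαΔN Myh6 probe 1 gave -0.013, Acta1 0.19 and Tpm2 probe 1 -0.047.

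As arrays were left out, these ranges crossed 0. In IκBαΔN against control Myh6 probe 1 ranged from -0.039 to 0.0017 and Tpm2 probe 1 from -0.19 to 0.00074. In double transgenic against control Myh6 probe 1 ranged from -0.013 to 0.062, Acta1 from -0.27 to 0.31 and Tpm2 probe 1 from -0.081 to 0.12. In double transgenic against IκBαΔN Tnnt1 ranged from -0.20 to 0.048, Acta1 from -0.52 to 0.064 and Tpm2 probe 2 from -0.023 to 0.36. The Myh6 probe 1 interaction ranged from -0.061 to 0.014.

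The Tpm2 probe 2 call in IκBαΔN against control was lost with median scaling (limma adjusted p = 0.278), the authors' scaled values (0.0758), no background correction (0.0704), no filter (0.0766), the runs as a fixed block (0.0657) and the compared genotypes alone (0.212).

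Probes called over all settings ranged from 34 (the compared genotypes alone) to 117 around 98 in TRAF2LC against control, from 18 to 66 around 42 in IκBαΔN against control, from 26 to 168 around 80 in double transgenic against control, from 120 to 390 around 275 in double transgenic against TRAF2LC, from 0 to 3 around 1 in double transgenic against IκBαΔN, and from 2 to 18 around 2 in the interaction. Array weights gave the highest counts in the IκBαΔN and double transgenic comparisons with control and in the interaction, and median scaling the lowest counts in the former comparisons and in double transgenic against TRAF2LC.

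Same-numbered arrays of different genotypes correlated from -0.29 to 0.41 (median 0.25) in their deviations from the genotype means, and arrays of other numbers at a median of -0.11. Of 16 arrays 7 correlated best with their own number, a hint from the data. Not every same-numbered pair was above 0.1 and the labels name no shared litter or day, so the numbers were not taken as pairs. With the replicate number as a block, Myh7 kept its calls in TRAF2LC against control (2.59, limma adjusted p = 0.00791) and in double transgenic against TRAF2LC (-3.62, limma adjusted p = 0.000173), and the interaction had a limma adjusted p of 0.211. Within the runs of sample numbers, the Myh7 difference of TRAF2LC from control was 2.13 (2 arrays against 2) and 2.66 (2 against 1).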

Other observations

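Within genotypes, the genes that followed Myh7 most closely after each genotype's mean was subtracted were Rab8a (r = 0.825), Mrps6 (0.819), Cytip (0.776), Hnrnpf (0.753) and Rpf2 (0.737), over 16 arrays that share their 4 genotype means. Rab8a encodes a small GTPase of vesicle traffic and Mrps6 a protein of the mitochondrial ribosome. Neither was called between genotypes: Rab8a differed by 0.20 (limma adjusted p = 0.601) and Mrps6 by 0.22 (limma adjusted p = 0.706) in TRAF2LC against control.

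Kcne1, a potassium channel subunit listed with the conduction system, was the marker of another cell type with the largest called difference in the arrays with IκBαΔN. It rose by 1.95 in IκBαΔN (limma adjusted p = 8.15e-07) and by 1.73 in double transgenic ventricles (limma adjusted p = 3.71e-06) against control. The other 4 tested conduction markers, Cacna1g, Tbx3, Gja5 and Irx3, were not called. All 8 atrial markers were lower in IκBαΔN and in double transgenic ventricles than in control, and 7 of 8 in TRAF2LC ventricles, with none called.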
